A study of Mus musculus with 753 samples.

Results

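The cells described here are the Gata6 lineage-negative (lin-) epidermal cells of late mouse wounds, set against lin- cells of unwounded back skin. They were chosen by the deposited lineage status (negative) and time (days 9, 11 and 0), which gave 240 of the 684 annotated cells: 145 wound cells and 95 day 0 cells. The cells fell into 6 sets, 1 for each day and replicate, and the replicate number was also the sequencing batch. The sets held 28 and 44 cells at day 9 after wounding, 26 and 47 cells at day 11, and 47 and 48 cells at day 0 (replicates 1 and 2 in that order). A set, not a cell, was the unit of replication, so 4 wound sets were compared with 2 unwounded sets.

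All mice that gave these cells carried the Gata6EGFPCreERT2 driver (spelled Gata6EFGPCreERT2 in the labels) and the Rosa26-fl/STOP/fl-tdTomato reporter, heterozygous for each. They were 8 to 12 weeks old. Back skin of every mouse was treated with topical 4-hydroxytamoxifen, which turns tdTomato on in cells that express Gata6, and was wounded with a full-thickness punch 1 week later. The lin- cells are the tdTomato-negative ones, so the status depends on recombination: a Gata6-expressing cell that did not recombine counts as lin-. Because wounds gave few cells, the authors mixed the samples with carrier epidermal cells of CAGGS eGFP mice, which express GFP in all cells. The GFP gate of the sort served to remove these carrier cells. Live cells were sorted as GFP-negative and CD45-negative after staining for CD45 and integrin alpha 6. They were read by Smart-seq2, a full-length method with 1 library per cell. Each wound set came from 1 mouse. Day 0 cells came from unwounded skin of the same mice that gave the day 9 and day 11 wounds, so wound and day 0 sets share animals and day 0 is not skin of untouched animals. Which of these mice gave which day 0 set is not stated, so the sharing is not a term of the fit beyond the replicate. The p-values below measure the spread between these sets. The lineage-positive (lin+) cells of the same days, 258 cells in 6 sets, entered the fit for the shared spread and for the comparison between lineages.

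After a full-thickness wound the epidermis is closed by keratinocytes that leave the interfollicular epidermis and the hair follicle, migrate over the wound bed and later return to layered, differentiated skin. Keratinocytes at a wound edge switch on the wound keratins (Krt6a, Krt6b, Krt16 and Krt17) beside the basal pair Krt5 and Krt14, and remodel their gap junctions, which are built from connexins. By days 9 and 11 a wound of this kind is usually covered by new epidermis.

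A level is a gene's share of a cell's total, times 1000000, averaged over a set's cells and scaled between sets of the same batch. In replicate 1 they start from read counts and in replicate 2 from RPKM, so a level is compared only with the other sets of its own replicate, and levels of different genes are not compared. Changes are on the scale of log2(level + 1), wound minus day 0, with the standard error of the fit (4 wound and 2 day 0 sets). Adjusted p-values come from limma with Benjamini-Hochberg adjustment over the 10517 genes tested, and a gene passed where it was under 0.05.

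The sets differed in more than time. In replicate 1 the median number of genes per cell was 3228 (day 9) and 1943.5 (day 11) against 1795 (day 0), and in replicate 2 it was 3104.5 (day 9) and 3095 (day 11) against 1900.5 (day 0). After each cell was thinned to 500000 reads the medians were 2801 and 2717 at day 9 and 1622 and 2854 at day 11 against 1449 and 1460.5 at day 0. The median depth was between 2066137 and 5925385.5 reads in wound sets and between 2912434.5 and 4202247 reads at day 0. In replicate 1 the ribosomal RNA genes Rn18s and Rn45s took a median 14.8% and 12.1% of the counts of wound cells and 28.6% at day 0. Of the 240 cells 3 had under 200 genes, and they held 5 reads (day 11, replicate 2), 18 reads (day 9, replicate 1) and 42 reads (day 0, replicate 1). In each wound set the median number of genes was above day 0 of its replicate, also after thinning. Shares of cells with reads are given below without the share over all genes. A higher share in wounds is thus not by itself a result about the gene named. The part of the number of genes per cell in the results was not tested.

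Of the 10 keratinocyte markers, reads of at least 2 were found in 138 of 145 wound cells and 94 of 95 day 0 cells, as the label of epidermal cells has it. The 5 leukocyte markers summed to between 0 and 14.2 in wound sets and between 0.159 and 0.875 at day 0, and no cell had 2 of them. Col1a1, Col1a2, Col3a1 and Pdgfra, the measured fibroblast markers, summed to between 0.625 and 6.40 in wound sets and between 11.9 and 22.7 at day 0. Macrophage and neutrophil markers summed to between 0.0812 and 39.6 in wound sets and between 3.42 and 12.6 at day 0. Endothelial markers ranged from 0 to 25.7 in wound sets and from 0.0177 to 0.0191 at day 0. Langerhans cell markers ranged from 0.285 to 54.7 and from 30.8 to 121. At least 2 sebaceous gland markers were read in 56 of 145 wound cells and 12 of 95 day 0 cells. Melanocyte markers had the highest sums of the non-epithelial groups. Dct, Pmel and Tyrp1, measured in both batches, summed to 3312 and 2424 in the replicate 2 wound sets, against 6.55 in day 0 of that replicate. They summed to 40.0 and 0 in wound sets of replicate 1, against 0.284 at day 0. In all, 8 wound cells and no day 0 cell had reads of 2 or more of the melanocyte markers. By the deposited identities, basal interfollicular cells (IFE-B) made up 75.0% and 38.6% of day 9 cells and 57.7% and 42.6% of day 11 cells against 76.6% and 64.6% of day 0 cells. Outer bulge cells (OB) made up 17.9% and 40.9% at day 9 and 26.9% and 42.6% at day 11 against 14.9% and 22.9% at day 0. The identities were derived by the authors from these expression values, and the exact 95% intervals of wound and day 0 sets overlapped for IFE-B and for OB in both replicates.

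In late wounds 24 genes passed, 0.228% of those tested, of which 20 were higher in lin- wound cells (0.19%) and 4 were lower (0.038%). Gjb2, Surf2, Alg3 and Fkbp1a were among the higher ones, and the nuclear noncoding RNA Malat1 was among the lower ones. Each of the 24 lay on the same side of day 0 in all 4 wound sets, where 16.1% of all genes tested were above day 0 of their replicate in all 4 sets and 14.8% were below. The 24 were chosen by the fit to these same sets, so this describes them and adds no support to the calls. Without the 3 cells with under 200 genes 23 of the 24 passed and Sectm1a did not, and without the cells with 2 or more melanocyte markers 16 of the 24 passed, while the changes of the 24 moved by between -0.13 and 0.06. With the highest cell of each gene taken out of each set 29 genes passed, 11 of them among the 24.

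The count depended on the fit. With the lin- sets alone no gene passed by limma (942 at an unadjusted p under 0.05), and the changes of the 24 moved by between -0.03 and 0.07. With cell totals without Rn18s and Rn45s 3 of the 24 passed, and their changes moved by between -0.18 and 0.20. By edgeR 3 genes passed, with day 11 alone 1 and with day 9 alone 3, against 843 by DESeq2. None of the 24 passed in every one of the 12 fits that left out 1 set. By limma, no gene passed without the day 9 lin- set of replicate 1 or 2 (1013 and 1036 genes at an unadjusted p under 0.05) or without the day 11 lin+ set of replicate 1 or 2 (1182 and 1194 genes). Without the day 11 lin- set of replicate 1 or of replicate 2 it was 2 genes each time, without a day 9 lin+ set 3 and 2, and without the day 0 lin- set of replicate 2 it was 97. All 24 kept their direction in all 27 alternatives tried, which reuse the same cells and so are no independent support.

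**Figure D1:**
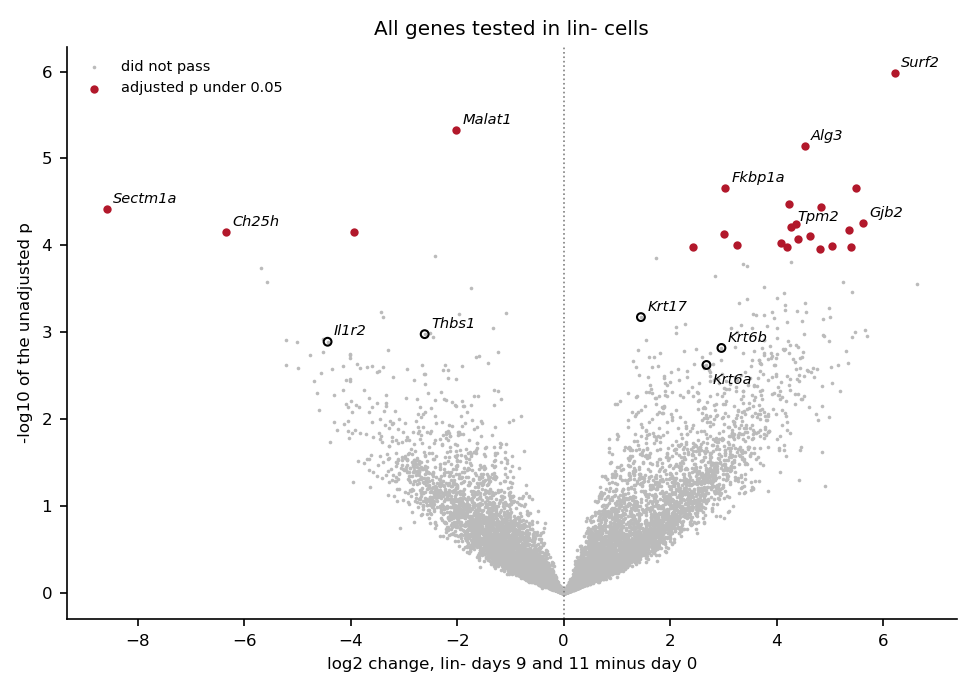
Change in lin- cells (log2, days 9 and 11 minus day 0, horizontal axis) against the unadjusted p (-log10, vertical axis) for the 10517 genes tested. The 24 genes that passed are red; the open circles mark wound keratins, Thbs1 and Il1r2, which did not pass over all lin- cells.

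**Figure D2:**
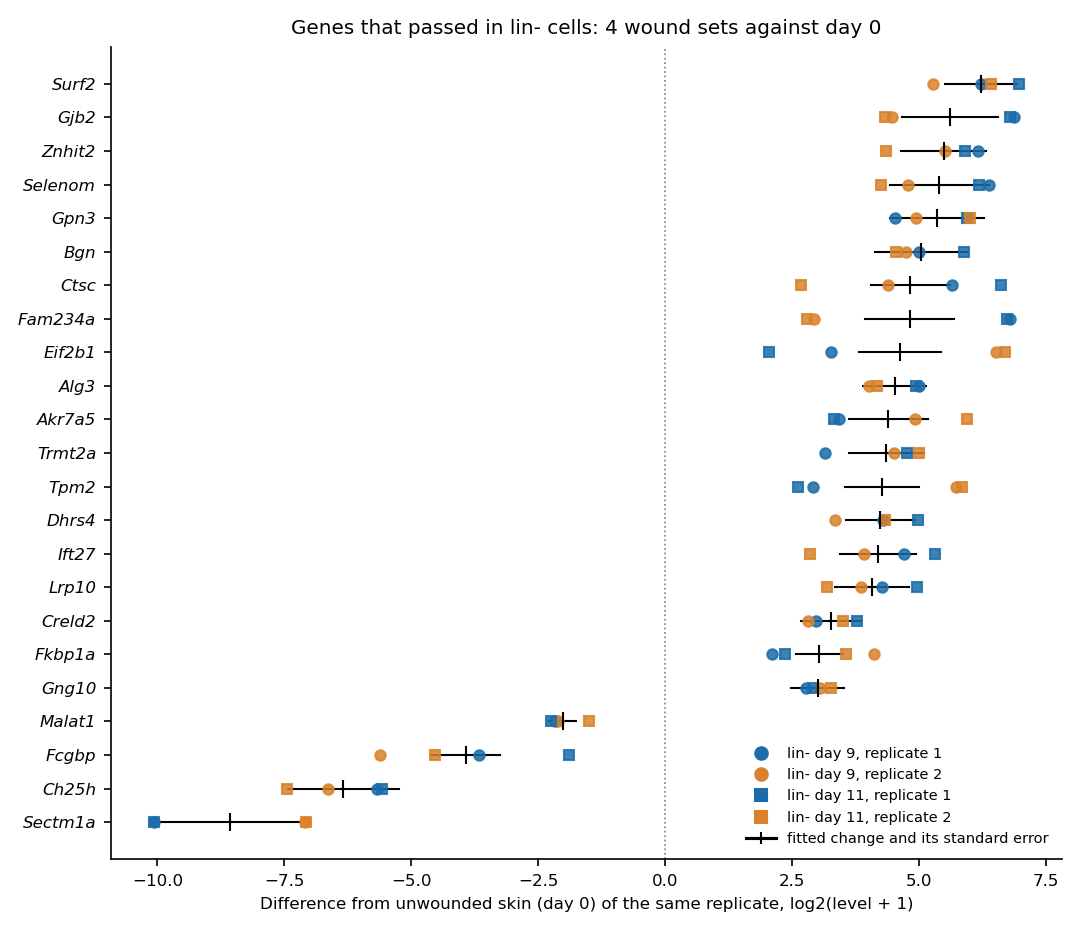
Difference of each of the 4 lin- wound sets from day 0 of its own replicate, on the scale of log2(level + 1), for 23 of the 24 genes that passed; black bars give the fitted change and its standard error. All points of the 19 upper genes lie right of 0 and all points of the 4 lower genes lie left of it.

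Gjb2 was among the genes that rose. Gjb2 (chr14:57098602-57104702, GRCm38), connexin 26, forms gap junctions between keratinocytes. Its level was 141 at day 9 and 133 at day 11 against 0.212 at day 0 in replicate 1, and 434 and 393 against 18.6 in replicate 2. Every wound set lay above day 0 of its replicate, and the change was 5.62 ± 0.95, adjusted p = 0.0480. Reads were found in 13 of 28, 20 of 44, 4 of 26 and 19 of 47 cells of the wound sets and in 1 of 47 and 2 of 48 cells of the day 0 sets. Among wound cells Gjb2 had reads in 34 of 73 IFE-B cells and 12 of 50 OB cells, against 1 of 67 and 1 of 18 at day 0. It passed in 3 of the 12 fits that left out 1 set. Among other members of the cell-cell junction list, Gja1 (connexin 43) was 221 at day 9 and 205 at day 11 against 117 at day 0 in replicate 1, and 1184 and 736 against 313 in replicate 2 (1.22 ± 0.80, adjusted p = 0.554). Gjb6 (connexin 30) was 54.8 at day 9 and 13.9 at day 11 against 0 at day 0 in replicate 1, and 37.8 and 80.0 against 34.2 in replicate 2 (2.76 ± 1.23, adjusted p = 0.377). Gja1 and Gjb6 are named after their values were seen. The cell-cell junction list had 20 tested members, of which Gjb2 alone passed, and a median of -0.12 beside 0.13 over all genes.

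Surf2 (chr2:26916372-26920187), a gene of the surfeit cluster of housekeeping genes, had the smallest p of all genes. Its level was 73.8 at day 9 and 124 at day 11 against 0 at day 0 in replicate 1, and 37.7 and 84.0 against 0 in replicate 2. No read of Surf2 was found at day 0, and the fitted change of 6.22 ± 0.71, adjusted p = 0.0109 rests on the pseudocount of 1 and is no bound on the fold. Reads were found in 9 of 28, 9 of 44, 6 of 26 and 10 of 47 cells of the wound sets and in 0 of 47 and 0 of 48 cells of the day 0 sets. By the limit of 3 counts, the 0 of 95 day 0 cells allows a share of up to 3.16%, for counting error only. Surf2 passed in 8 of the 12 fits that left out 1 set, the most of the 24. Its exons share 137 bases with Surf1 and 144 with Surf4 on the opposite strand, and reads there cannot be told apart without strand. In lin+ cells its level was 40.1 at day 9 and 120.0 at day 11 against 206 at day 0 in replicate 1, and 62.8 and 89.1 against 38.7 in replicate 2. By level the day 0 lin+ sets thus did not lack Surf2, and the difference between the lineages missed the threshold (6.53 ± 1.01, adjusted p = 0.0820). A single cell gave 82.1% of the lin+ day 0 level in replicate 1 and 51.2% in replicate 2. Reads of Surf2 were found in 9 of 93 lin+ cells at day 0 and in 43 of 165 in wounds, so the share was higher in wounds there too. The median number of genes per lin+ cell was also higher in wounds (2667.5 to 3108) than at day 0 (1776 and 2308). The part of this in the share was not tested.

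Gpn3 (chr5:122372508-122382771) is a small GTPase needed in yeast and human cells to bring RNA polymerase II into the nucleus. Gpn3 was 22.0 at day 9 and 60.4 at day 11 against 0 at day 0 in replicate 1, and 29.9 and 63.2 against 0 in replicate 2, a change of 5.35 ± 0.92, adjusted p = 0.0480. No read of Gpn3 was found in the 95 day 0 cells, so this value too rests on the pseudocount. Its exons share 482 bases with the opposite-strand Fam216a. Znhit2 (chr19:6061207-6062468) is a zinc finger HIT protein that in human cells helps assemble the spliceosome. Znhit2 was 71.5 at day 9 and 59.2 at day 11 against 0.00817 at day 0 in replicate 1, and 44.7 and 19.5 against 0 in replicate 2 (5.48 ± 0.84, adjusted p = 0.0465). A single read made up its day 0 level. Eif2b1 (chr5:124570214-124579131) is the alpha subunit of the exchange factor that recharges eIF2 in translation initiation. Eif2b1 was 189 at day 9 and 80.5 at day 11 against 18.8 at day 0 in replicate 1, and 90.3 and 102 against 0 in replicate 2 (4.63 ± 0.81, adjusted p = 0.0480). Trmt2a (chr16:18248847-18254772) is a tRNA methyltransferase. Trmt2a was 73.6 at day 9 and 228 at day 11 against 7.40 at day 0 in replicate 1, and 21.8 and 30.8 against 0 in replicate 2 (4.36 ± 0.73, adjusted p = 0.0480). For both, all day 0 signal came from replicate 1, where 4 and 5 of 47 cells had reads, against none of 48 in replicate 2. Trmt2a exons share 825 bases with the opposite-strand Dgcr8. In lin+ cells Eif2b1 was 108 at day 9 and 163 at day 11 against 107 at day 0 in replicate 1, and 80.4 and 78.1 against 83.2 in replicate 2. Day 0 and wound levels thus overlapped there, and the difference between lineages did not pass (4.51 ± 1.14, adjusted p = 0.524). A single cell gave 44.3% of the lin+ day 0 level of Eif2b1 in replicate 1 and 70.0% in replicate 2. Reads of Eif2b1 were found in 13 of 93 lin+ cells at day 0 and in 57 of 165 in wounds.

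Alg3 (chr16:20605458-20610761) adds the first lumenal mannose to the lipid-linked sugar used for N-glycosylation. Alg3 had 93.9 at day 9 and 89.8 at day 11 against 1.97 at day 0 in replicate 1, and 63.9 and 71.4 against 3.04 in replicate 2, a change of 4.53 ± 0.62, adjusted p = 0.0252. It passed in 4 of the 12 fits that left out 1 set. Reads of Alg3 were found in 23 of 73 IFE-B and 4 of 50 OB wound cells, against 2 of 67 and 2 of 18 at day 0. Creld2 (chr15:88819646-88826681) is a reticulum protein that is induced by reticulum stress. Creld2 was 51.8 at day 9 and 91.0 at day 11 against 5.73 at day 0 in replicate 1, and 62.8 and 102 against 8.10 in replicate 2 (3.26 ± 0.58, adjusted p = 0.0480). Selenom (chr11:3514684-3517351) is a selenoprotein of the same compartment. Selenom was 83.7 at day 9 and 73.3 at day 11 against 0.0195 at day 0 in replicate 1, and 152 and 106 against 4.57 in replicate 2 (5.40 ± 0.97, adjusted p = 0.0480). The wound sets of all 3 genes were above day 0 in both replicates, but reads were found in few cells. Selenom was read in 6 of 28, 12 of 44, 2 of 26 and 9 of 47 cells of the wound sets and in 2 of 47 and 1 of 48 cells of the day 0 sets.

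Ctsc (chr7:88278024-88315861) is cathepsin C, a lysosomal peptidase that activates serine proteases. Ctsc was 81.2 at day 9 and 158 at day 11 against 0.636 at day 0 in replicate 1, and 465 and 141 against 21.2 in replicate 2 (4.83 ± 0.78, adjusted p = 0.0480). Its reads were found in 10 of 28, 17 of 44, 6 of 26 and 17 of 47 cells of the wound sets and in 1 of 47 and 4 of 48 cells of the day 0 sets. Bgn (chrX:73483601-73495936) is the small leucine-rich proteoglycan biglycan. Bgn was 37.9 at day 9 and 70.6 at day 11 against 0.212 at day 0 in replicate 1, and 95.6 and 83.4 against 2.59 in replicate 2 (5.05 ± 0.91, adjusted p = 0.0480). Reads of Bgn were found in 24 of 50 OB and 14 of 73 IFE-B wound cells, against 1 of 18 and 1 of 67 at day 0. Lrp10 (chr14:54464137-54470292) is a receptor of the LDL receptor family. Lrp10 was 36.1 at day 9 and 59.3 at day 11 against 0.925 at day 0 in replicate 1, and 33.6 and 20.6 against 1.37 in replicate 2 (4.07 ± 0.73, adjusted p = 0.0480).

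Fkbp1a (chr2:151542483-151561691), the immunophilin FKBP12 that binds FK506 and the type I TGF-beta receptor, was read in more wound cells than any other gene that rose. Its level was 151 at day 9 and 180.2 at day 11 against 34.3 at day 0 in replicate 1, and 524 and 359 against 29.3 in replicate 2, a change of 3.04 ± 0.46, adjusted p = 0.0465. Reads were found in 20 of 28, 34 of 44, 13 of 26 and 32 of 47 cells of the wound sets and in 10 of 47 and 6 of 48 cells of the day 0 sets. The sets did not overlap: the lowest wound share was 50.0% (13 of 26) and the highest day 0 share was 21.3% (10 of 47). Fkbp1a was chosen by the fit to these same sets, so this describes it and adds no support to the call. How many of all genes had shares without overlap was not counted. After thinning to 500000 reads the wound shares were 66.7%, 72.1%, 42.3% and 68.9% and the day 0 shares 15.9% and 12.5%. Tpm2 (chr4:43513726-43523583) is beta-tropomyosin, which coats actin filaments. Tpm2 was 230.4 at day 9 and 188 at day 11 against 29.9 at day 0 in replicate 1, and 53.3 and 57.6 against 0.0191 in replicate 2 (4.28 ± 0.73, adjusted p = 0.0480). It was the only 1 of 24 tested members of the actin cytoskeleton and migration list to pass, and the list had a median change of -0.01 beside 0.13 over all genes. Gng10 (chr4:59035156-59041899) is a gamma subunit of heterotrimeric G proteins. It shares 946 of its 1314 exon bases with the overlapping Gm20503. Gng10 was 123 at day 9 and 137 at day 11 against 17.2 at day 0 in replicate 1, and 117 and 138 against 13.4 in replicate 2 (3.0 ± 0.52, adjusted p = 0.0480). Lrp10, Creld2, Fkbp1a and Gng10 are outside the 15 with the highest change and are named after their values were seen.

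The remaining genes that rose were Akr7a5 (chr4:139310720-139318786), an aldehyde reductase, Dhrs4 (chr14:55478741-55490340), a short-chain dehydrogenase that reduces retinal, Ift27 (chr15:78159460-78174081), a small GTPase of ciliary transport, and Fam234a (chr17:26212692-26244307). Akr7a5 had 65.3 at day 9 and 60.8 at day 11 against 5.20 at day 0 in replicate 1, and 29.2 and 60.4 against 0 in replicate 2 (4.40 ± 0.77, adjusted p = 0.0480). Dhrs4 had 64.6 at day 9 and 106 at day 11 against 2.36 at day 0 in replicate 1, and 56.0 and 112 against 4.59 in replicate 2 (4.24 ± 0.68, adjusted p = 0.0480). In Akr7a5 and Dhrs4 every wound set was above day 0. Ift27 and Fam234a had no read in day 0 of replicate 1 and low levels in day 0 of replicate 2. For Ift27 these were 24.9 at day 9 and 38.7 at day 11 against 0 at day 0 in replicate 1, and 174 and 82.3 against 10.6 in replicate 2 (4.19 ± 0.76, adjusted p = 0.0480). For Fam234a these were 109 at day 9 and 106 at day 11 against 0 at day 0 in replicate 1, and 49.8 and 45.3 against 5.64 in replicate 2 (4.82 ± 0.87, adjusted p = 0.0488).

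**Figure D3:**
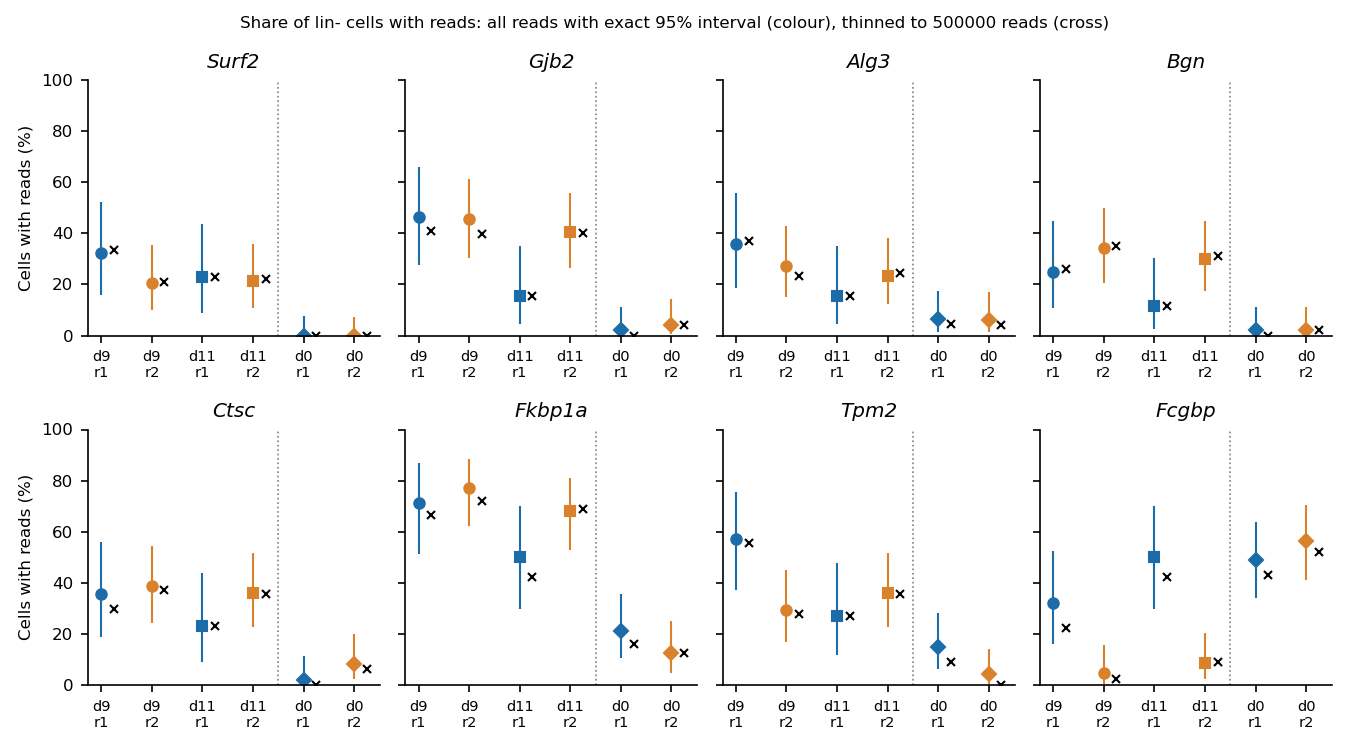
Share of lin- cells with reads of 8 genes that passed, in the 4 wound sets (left of the dotted line) and the 2 day 0 sets; d is the day and r the replicate. Coloured points use all reads, with exact (Clopper-Pearson) 95% binomial intervals, and crosses use cells thinned to 500000 reads. For Fkbp1a the wound sets lie between 50.0% and 77.3% and the day 0 sets at 21.3% and 12.5%.

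Promoter windows (RefSeq, GRCm38.p6, 250 bases before to 50 after the start) are shown for 3 of the genes that rose, a connexin, the gene with the smallest p and the stress-induced reticulum gene. They are shown so that the windows of genes that rose in the same cells can be compared. The motifs were chosen with the results known, and a match is a description of letters, not a site. Capitals mark a motif found by letter search on both strands (on the opposite strand its reverse complement is in capitals): the GC box GGGCGG in Gjb2, the E-box CACGTG in Surf2 and the reticulum stress element, CCAAT and CCACG set 9 bases apart, in Creld2.
Gjb2 (chr14:57104653-57104952, - strand): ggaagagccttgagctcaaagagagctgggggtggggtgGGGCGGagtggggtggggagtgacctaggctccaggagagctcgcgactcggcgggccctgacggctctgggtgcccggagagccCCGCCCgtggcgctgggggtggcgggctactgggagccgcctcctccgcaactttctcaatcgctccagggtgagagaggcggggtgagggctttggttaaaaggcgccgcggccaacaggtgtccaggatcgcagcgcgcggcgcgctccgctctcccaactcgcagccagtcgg
Surf2 (chr2:26916158-26916457, + strand): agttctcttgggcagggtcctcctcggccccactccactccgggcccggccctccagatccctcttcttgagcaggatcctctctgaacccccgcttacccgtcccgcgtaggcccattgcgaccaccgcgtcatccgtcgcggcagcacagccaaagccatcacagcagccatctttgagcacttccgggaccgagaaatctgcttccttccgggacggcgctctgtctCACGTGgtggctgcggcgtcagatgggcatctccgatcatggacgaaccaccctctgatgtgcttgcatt
Creld2 (chr15:88819396-88819695, + strand): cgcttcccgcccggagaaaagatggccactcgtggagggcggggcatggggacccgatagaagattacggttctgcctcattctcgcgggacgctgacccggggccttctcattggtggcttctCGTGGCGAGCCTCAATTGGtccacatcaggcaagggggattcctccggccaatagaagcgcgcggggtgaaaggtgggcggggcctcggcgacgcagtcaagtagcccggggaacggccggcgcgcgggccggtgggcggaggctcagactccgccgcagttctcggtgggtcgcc
Of the 24 genes, 22 had a window of full length. The GC box was in 10 of the 22 (45.5%), where 35.9% of all 27025 windows held it. The E-box was in 1 of the 22, where 7.24% of all windows held it. The reticulum stress element was in 1 of the 22, where 0.13% of all windows held it. The AP-1 letters TGANTCA were in 2 of the 22 (Trmt2a and Alg3), where 7.93% of all windows held them. The CCAAT box (CCAAT), which overlaps the reticulum stress element, was in 5 of the 22, where 37.9% of all windows held it.

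The genes that passed on the lower side were Malat1, Fcgbp, Ch25h and Sectm1a. Malat1 (chr19:5795690-5802672), a nuclear long noncoding RNA, was read in nearly every cell. Its level was 1553 at day 9 and 1471 at day 11 against 7029 at day 0 in replicate 1, and 6459.7 and 9896 against 28026 in replicate 2, a change of -2.01 ± 0.27, adjusted p = 0.0249. In lin+ cells Malat1 was 1601 at day 9 and 1074 at day 11 against 10826 at day 0 in replicate 1, and 7785 and 4975 against 26656 in replicate 2. The difference between lineages did not pass (0.56 ± 0.38, adjusted p = 0.784). Fcgbp (chr7:28071236-28120864) is a mucin-like secreted protein that binds the Fc part of IgG. Fcgbp was 204 at day 9 and 691 at day 11 against 2582 at day 0 in replicate 1, and 2.22 and 5.77 against 157 in replicate 2 (-3.93 ± 0.68, adjusted p = 0.0480). Reads of Fcgbp were found in 9 of 28, 2 of 44, 13 of 26 and 4 of 47 cells of the wound sets and in 23 of 47 and 27 of 48 cells of the day 0 sets. The day 11 set of replicate 1 was the highest wound set for this gene, and its share of cells was no lower than at day 0. Among IFE-B cells the gene had reads in 21 of 73 wound cells against 43 of 67 day 0 cells.

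The other calls on the lower side came from few day 0 cells. Ch25h (chr19:34473783-34475148) encodes the enzyme that makes 25-hydroxycholesterol. Ch25h was 0 at day 9 and 0.0636 at day 11 against 49.9 at day 0 in replicate 1, and 0.756 and 0 against 174 in replicate 2 (-6.34 ± 1.09, adjusted p = 0.0480). Its reads came from 1 of 47 and 6 of 48 day 0 cells, and without the highest cell of each set it did not pass (-3.24, adjusted p = 0.351). Sectm1a (chr11:121067395-121097153) encodes a membrane and secreted ligand of T cells. Sectm1a was 0 at day 9 and 0 at day 11 against 1072 at day 0 in replicate 1, and 0 and 0.0155 against 135 in replicate 2 (-8.57 ± 1.39, adjusted p = 0.0480). The whole day 0 level of replicate 1 came from 2 reads of Sectm1a in a cell with 42 reads in all. Without the 3 cells with under 200 genes the change was -3.54 with an adjusted p of 0.412, so the call rests on that cell.

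Because under 5 genes passed in this direction, the 5 with the next smallest p are given too, none of which passed. Ccn1 is a matricellular protein and target of YAP. Ccn1 was 94.4 at day 9 and 1148 at day 11 against 1518 at day 0 in replicate 1, and 293 and 607 against 2646 in replicate 2 (-2.42 ± 0.45, adjusted p = 0.0562). Serpinb2 is an inhibitor of plasminogen activators. Serpinb2 was 0 at day 9 and 64.7 at day 11 against 268 at day 0 in replicate 1, and 129 and 69.6 against 6508 in replicate 2 (-5.57 ± 1.11, adjusted p = 0.0847). All 4 wound sets of both genes lay below day 0 of their replicate. Btg1 is an antiproliferative factor. Btg1 was 75.4 at day 9 and 116 at day 11 against 310.3 at day 0 in replicate 1, and 312 and 309.9 against 1052 in replicate 2 (-1.74 ± 0.35, adjusted p = 0.0916). The others were Pglyrp4, an antibacterial peptidoglycan recognition protein (-5.68 ± 1.09, adjusted p = 0.0636), and the ribosomal RNA precursor Rn45s (-1.08 ± 0.24, adjusted p = 0.123).

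None of the wound keratins passed over all lin- cells. Krt6a was 954 at day 9 and 371 at day 11 against 35.1 at day 0 in replicate 1, and 290.4 and 190.3 against 93.7 in replicate 2 (2.68 ± 0.71, adjusted p = 0.159). The Krt6b transcript is nearly identical to that of Krt6a, so reads may be shared. Krt6b was 269 at day 9 and 83.9 at day 11 against 22.5 at day 0 in replicate 1, and 32.6 and 13.3 against 1.32 in replicate 2 (2.96 ± 0.74, adjusted p = 0.158). Krt17 was 10902 at day 9 and 9991 at day 11 against 2210.1 at day 0 in replicate 1, and 4013 and 3733 against 2444 in replicate 2 (1.45 ± 0.32, adjusted p = 0.123). These 3 were above day 0 of their replicate in all 4 wound sets. Krt16 was above day 0 in 1 wound set only. Its level was 1361 at day 9 and 185 at day 11 against 428 at day 0 in replicate 1, and 86.0 and 33.8 against 122 in replicate 2 (-0.47 ± 0.68, adjusted p = 0.798).

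Within the IFE-B cells, the basal interfollicular cells, 10 of 10190 genes passed (0.0981%), 8 higher (0.0785%) and 2 lower (0.0196%), and the wound keratins Krt6a and Krt17 were among them. In these cells Krt6a was 536 at day 9 and 536 at day 11 against 45.9 at day 0 in replicate 1, and 312 and 196 against 0.647 in replicate 2, a change of 5.38 ± 0.84, adjusted p = 0.0390. Krt17 was 9187 at day 9 and 8444 at day 11 against 2040.2 at day 0 in replicate 1, and 2107 and 3969 against 884 in replicate 2 (1.91 ± 0.31, adjusted p = 0.0394). Both levels rose in IFE-B cells of each replicate, and the day 0 level of Krt6a in replicate 2 was 0.647 over IFE-B cells against 93.7 over all lin- cells. That 0.647 is under the pseudocount of 1, so the size of the Krt6a change rests in part on it. Reads of Krt6a were found in 47 of 73 IFE-B wound cells against 37 of 67 at day 0. For Krt17 they were found in 62 of 73 against 61 of 67, so its share was not higher in wounds. Krt6b (2.76 ± 0.93, adjusted p = 0.380) and Krt16 (-2.61 ± 0.86, adjusted p = 0.374) did not pass in IFE-B cells. Of the 10, Fkbp1a, Malat1 and Sectm1a (3 genes) also passed over all lin- cells, and Sectm1a again with the cell of 42 reads. Fkbp1a was 139.7 at day 9 and 192 at day 11 against 21.8 at day 0 in replicate 1, and 521 and 573 against 39.8 in replicate 2 (3.30 ± 0.52, adjusted p = 0.0390). Malat1 was 1171 at day 9 and 1399 at day 11 against 7376 at day 0 in replicate 1, and 5149 and 9129 against 28194 in replicate 2 (-2.28 ± 0.35, adjusted p = 0.0390). The others that rose in IFE-B cells were Pepd, a dipeptidase that releases proline, Krt73, a keratin of the inner root sheath, Ltv1, a factor of small ribosomal subunit assembly, Thap11, a zinc finger protein, and Ctnnbip1, an inhibitor of beta-catenin. Pepd had no read in IFE-B cells at day 0, so its change rests on the pseudocount. Its level in IFE-B cells was 351 at day 9 and 265 at day 11 against 0 at day 0 in replicate 1, and 36.3 and 115 against 0 in replicate 2 (7.15 ± 0.84, adjusted p = 0.0125). Ctnnbip1 was 221 at day 9 and 136 at day 11 against 5.03 at day 0 in replicate 1, and 85.6 and 128 against 2.84 in replicate 2 (4.82 ± 0.78, adjusted p = 0.0390).

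**Figure D4:**
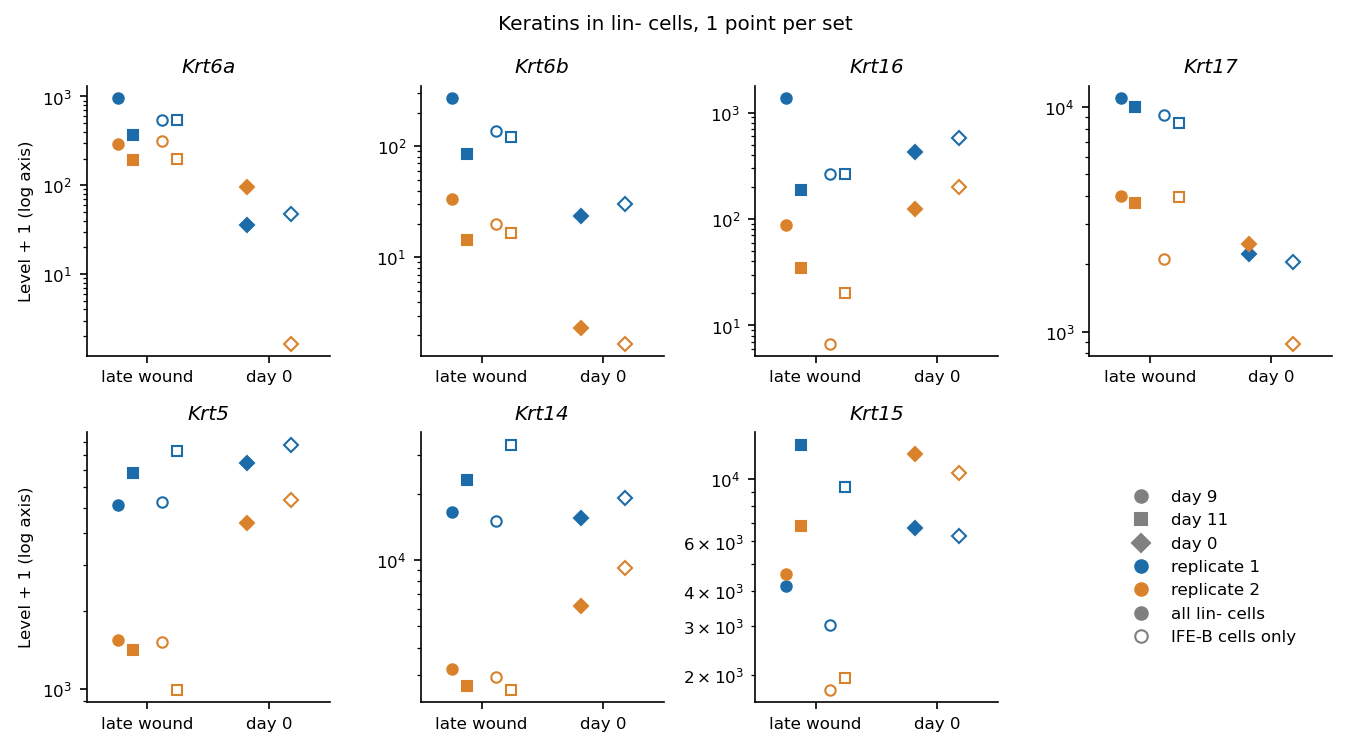
Levels (log axis, level + 1) of 4 wound keratins and 3 basal keratins in lin- cells, late wound left and day 0 right, 1 point per set. Filled points are all lin- cells and open points the IFE-B cells; Krt6a and Krt17 passed in IFE-B cells, where every wound set lay above day 0 of its replicate.

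Basal genes lay mostly below day 0, without passing. Krt5 was 5117 at day 9 and 6839 at day 11 against 7463 at day 0 in replicate 1, and 1552 and 1411 against 4369.9 in replicate 2 (-0.95 ± 0.31, adjusted p = 0.239). Krt14, its partner, was 16478 at day 9 and 23041 at day 11 against 15506 at day 0 in replicate 1, and 3223 and 2696 against 6167 in replicate 2 (-0.37 ± 0.37, adjusted p = 0.711). Krt14 thus lay above day 0 in replicate 1 and below it in replicate 2. Krt15 is a keratin of follicle stem cells and basal cells. Krt15 was 4163 at day 9 and 13273 at day 11 against 6704 at day 0 in replicate 1, and 4599 and 6832 against 12334 in replicate 2 (-0.49 ± 0.32, adjusted p = 0.551). Itga6 is the integrin subunit used in the sort. Itga6 was 50.7 at day 9 and 26.1 at day 11 against 106 at day 0 in replicate 1, and 37.7 and 23.2 against 146 in replicate 2 (-1.89 ± 0.59, adjusted p = 0.208). Krt5 and Itga6 were below day 0 of their replicate in all 4 wound sets, while Krt15 lay above day 0 in the day 11 set of replicate 1 only. Of the 19 tested members of the basal keratin and adhesion list 18 had a negative change, where 4843 of all 10517 genes did. The median of the list was -0.95 beside 0.13 over all genes. Of its members 8 were below day 0 in all 4 wound sets, where 14.8% of all genes were, and none passed.

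Gata6 reads were found in 6 of 145 wound cells and 5 of 95 day 0 cells. Its level was 0.470 at day 9 and 0.119 at day 11 against 6.17 at day 0 in replicate 1, and 0.00206 and 4.94 against 0 in replicate 2 (-0.60 ± 1.25, adjusted p = 0.866). In lin+ cells Gata6 was 9.92 at day 9 and 14.2 at day 11 against 146 at day 0 in replicate 1, and 28.2 and 18.4 against 29.0 in replicate 2. The lin+ sets were above the lin- sets at each day and replicate. Lrig1 is a marker of the follicle junctional zone. Lrig1 was 129.6 at day 9 and 97.4 at day 11 against 61.6 at day 0 in replicate 1, and 30.9 and 14.1 against 4.29 in replicate 2 (1.46 ± 0.72, adjusted p = 0.422). Myc was 443 at day 9 and 415 at day 11 against 354 at day 0 in replicate 1, and 151 and 96.8 against 456 in replicate 2 (-0.82 ± 0.79, adjusted p = 0.692). Mki67 is a marker of cycling cells. Mki67 was 66.2 at day 9 and 9.86 at day 11 against 129.7 at day 0 in replicate 1, and 30.4 and 26.4 against 12.5 in replicate 2 (-0.58 ± 0.95, adjusted p = 0.827). Neither Myc nor Mki67 kept 1 side of day 0 over the 4 wound sets. Reads of Mki67 were found in 44 of 145 wound cells against 12 of 95 day 0 cells. In IFE-B cells they were found in 34 of 73 against 10 of 67. The share of cells was thus higher in wounds where the fitted change of the level was negative, and this was not tested. The median number of genes per cell was also higher in each wound set than in day 0 of its replicate. No share over all genes was computed to set beside that of Mki67.

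Of 40 gene lists (28 of functions, 12 of cell types), only the actin list (Tpm2) and the cell-cell junction list (Gjb2) held a member that passed over all lin- cells. An unadjusted p under 0.05 was met by 12.9% of all genes, 8.57% higher and 4.31% lower, and the lists are given beside that. Of all 10517 genes 5674 had a positive and 4843 a negative change. Counts of positive and negative members are to be read beside these. Members named from here to the comparison of lineages did not pass and were chosen after their values were seen. Of the 4 wound keratins 3 met it, all higher, and the list had a median of 2.07. Of 13 tested chemokine and interleukin 1 family genes 2 met it higher and 6 lower, with a median of -0.82. Ccl2, which attracts monocytes, was 34.3 at day 9 and 0 at day 11 against 0.00507 at day 0 in replicate 1, and 53.4 and 142 against 0 in replicate 2 (4.51 ± 1.24, adjusted p = 0.166). Cxcl14 is a chemokine made by resting epidermis, and the authors used it as an outer bulge marker. Outer bulge cells made up a larger share of each wound set than of day 0 of its replicate, and their part was not tested. Cxcl14 was 678 at day 9 and 786 at day 11 against 247 at day 0 in replicate 1, and 1393 and 1475 against 791 in replicate 2 (1.21 ± 0.36, adjusted p = 0.191). Among the lower ones was Il1rn, the interleukin 1 receptor antagonist. Il1rn was 16.9 at day 9 and 2.70 at day 11 against 26.0 at day 0 in replicate 1, and 43.8 and 14.0 against 175 in replicate 2 (-2.25 ± 0.68, adjusted p = 0.196). The interleukin 1 antagonist was below day 0 of its replicate in all 4 wound sets, and Cxcl14 above it in all 4.

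Of 18 immediate early and AP-1 genes 15 had a negative change (median -0.57), 3 met an unadjusted p under 0.05 and all 3 were lower. Fosb was 76.4 at day 9 and 556 at day 11 against 633 at day 0 in replicate 1, and 41.9 and 65.7 against 375 in replicate 2 (-2.21 ± 0.78, adjusted p = 0.273). Of 11 heat shock genes 2 met it higher and 1 lower. Hspa1a encodes an inducible chaperone and was 831 at day 9 and 508 at day 11 against 103 at day 0 in replicate 1, and 482 and 483 against 126 in replicate 2 (2.28 ± 0.52, adjusted p = 0.136). Dnajb1, a co-chaperone, was 797 at day 9 and 1178 at day 11 against 2354 at day 0 in replicate 1, and 468 and 428 against 1605 in replicate 2 (-1.56 ± 0.56, adjusted p = 0.276). The wound sets of Fosb, Hspa1a and Dnajb1 each lay on 1 side of day 0.

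Of 11 tested matrix genes 1 met an unadjusted p under 0.05 on the higher side and 3 on the lower. Tnc encodes tenascin C, which is deposited in healing wounds. Tnc was 13.0 at day 9 and 79.3 at day 11 against 3.02 at day 0 in replicate 1, and 34.3 and 26.8 against 0.396 in replicate 2 (3.77 ± 1.30, adjusted p = 0.262). Tgfbi is a matrix protein that binds integrins. Tgfbi was 109 at day 9 and 316 at day 11 against 526 at day 0 in replicate 1, and 48.0 and 71.5 against 208 in replicate 2 (-1.65 ± 0.42, adjusted p = 0.158). Of 10 tested protease genes, 1 met it higher and 2 lower. Plat encodes tissue plasminogen activator. Plat was 22.3 at day 9 and 68.1 at day 11 against 1.11 at day 0 in replicate 1, and 65.2 and 60.8 against 14.1 in replicate 2 (3.16 ± 1.10, adjusted p = 0.269). Mmp3, stromelysin 1, had no read in any wound set, against levels of 64.9 and 8.37 in the day 0 sets (-4.64 ± 1.37, adjusted p = 0.191).

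Genes of DNA replication had a median change of 0.92, with 16 of 21 tested members positive, and mitosis genes one of 0.52, with 15 of 23. Over all genes 5674 of 10517 were positive. The replicates differed here: the median of the replication genes was -0.28 in replicate 1 and 2.32 in replicate 2, and that of the mitosis genes -1.38 and 1.94. Mcm2 is a subunit of the replicative helicase. Mcm2 was 20.7 at day 9 and 18.0 at day 11 against 3.30 at day 0 in replicate 1, and 16.0 and 21.8 against 0.616 in replicate 2 (2.92 ± 0.83, adjusted p = 0.172). Of 18 glycolysis and hypoxia genes 4 met an unadjusted p under 0.05 higher and 1 lower. Eno1 encodes enolase 1. Eno1 was 428 at day 9 and 316 at day 11 against 127 at day 0 in replicate 1, and 186 and 165 against 76.6 in replicate 2 (1.36 ± 0.41, adjusted p = 0.193). Ldha encodes lactate dehydrogenase A. Ldha was 601 at day 9 and 741 at day 11 against 203 at day 0 in replicate 1, and 185 and 192 against 128 in replicate 2 (1.13 ± 0.44, adjusted p = 0.317). Both were above day 0 in all 4 wound sets.

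Of 21 sterol and fatty acid synthesis genes 14 were negative (median -0.54), 4 met an unadjusted p under 0.05 and all 4 were lower. Hmgcs1, which makes the precursor of mevalonate, was 91.1 at day 9 and 158 at day 11 against 246 at day 0 in replicate 1, and 231 and 250.4 against 710.3 in replicate 2 (-1.29 ± 0.44, adjusted p = 0.261). Of 14 tested interferon and class I histocompatibility genes 7 were positive and 7 negative (median -0.14, with 0.46 in replicate 1 and -0.54 in replicate 2), and 2 met an unadjusted p under 0.05, both lower. B2m, the light chain of class I molecules, was 953 at day 9 and 1334 at day 11 against 2055 at day 0 in replicate 1, and 3323 and 2606 against 8898 in replicate 2 (-1.23 ± 0.36, adjusted p = 0.189). Of the 22 epidermal transcription factors 2 met it higher and 1 lower. Tcf3 was 134 at day 9 and 163 at day 11 against 10.2 at day 0 in replicate 1, and 75.6 and 46.7 against 19.6 in replicate 2 (2.64 ± 0.70, adjusted p = 0.159). Sox9 is a follicle factor. Sox9 was 546 at day 9 and 552 at day 11 against 66.3 at day 0 in replicate 1, and 747 and 759.5 against 727 in replicate 2 (1.54 ± 0.54, adjusted p = 0.273). The wound sets of Tcf3 were above day 0 in both replicates, and those of Sox9 in replicate 1 were, while in replicate 2 all 3 levels were close. The ribosomal protein list had a median of 0.02. Melanocyte genes had a median of 3.55, split as 0.04 in replicate 1 and 7.07 in replicate 2, and none of 7 passed.

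The change in lin- cells was then compared with that in lin+ cells of the same days. Of the 10517 genes 2 passed (0.019%), both with the lower change in lin- cells. Thbs1 (chr2:118111876-118127133) is thrombospondin 1, an adhesive matrix glycoprotein that activates TGF-beta. Thbs1 was 44.1 at day 9 and 183 at day 11 against 371 at day 0 in replicate 1, and 32.4 and 40.3 against 338 in replicate 2 in lin- cells. In lin+ cells it was 54.2 at day 9 and 121 at day 11 against 1.55 at day 0 in replicate 1, and 32.9 and 62.0 against 0.524 in replicate 2. The lin- wound sets were all below day 0 and the lin+ wound sets all above, and the difference of the changes was -7.58 ± 0.87, adjusted p = 0.0118 on the log2 scale. By level the lineages lay apart at day 0 and in 1 range in wounds, and no contrast between them at day 0 was fitted. A single cell gave 50.2% of the lin- and 93.7% of the lin+ day 0 level of Thbs1 in replicate 1. The shares of cells with reads did not follow the levels throughout. In lin- cells of replicate 1 they were 11 of 47 at day 0 against 7 of 28 and 7 of 26 in wounds. Il1r2 (chr1:40084692-40125230) is the interleukin 1 decoy receptor. Il1r2 was 3.68 at day 9 and 146 at day 11 against 92.1 at day 0 in replicate 1, and 0.0159 and 8.47 against 406 in replicate 2 in lin- cells. In lin+ cells it was 91.7 at day 9 and 164 at day 11 against 0 at day 0 in replicate 1, and 82.2 and 49.7 against 0.0316 in replicate 2. Its difference of changes was -10.90 ± 1.52, adjusted p = 0.0457, and the day 11 lin- set of replicate 1 lay above its day 0. Reads of Il1r2 were found in 0 of 47 and 2 of 46 lin+ cells at day 0, and in day 0 lin- cells of replicate 1 a single cell gave 84.6% of the level.

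The call on Thbs1 was kept in 6 and that on Il1r2 in 3 of the 12 fits that left out 1 set. Neither passed without the day 0 lin+ set of replicate 1, where the difference was -7.51 for Thbs1 (adjusted p = 0.0751) and -10.29 for Il1r2 (adjusted p = 0.336). With the highest cell of each set taken out it was -7.46 for Thbs1 (adjusted p = 0.203) and -9.82 for Il1r2 (adjusted p = 0.518).

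**Figure D5:**
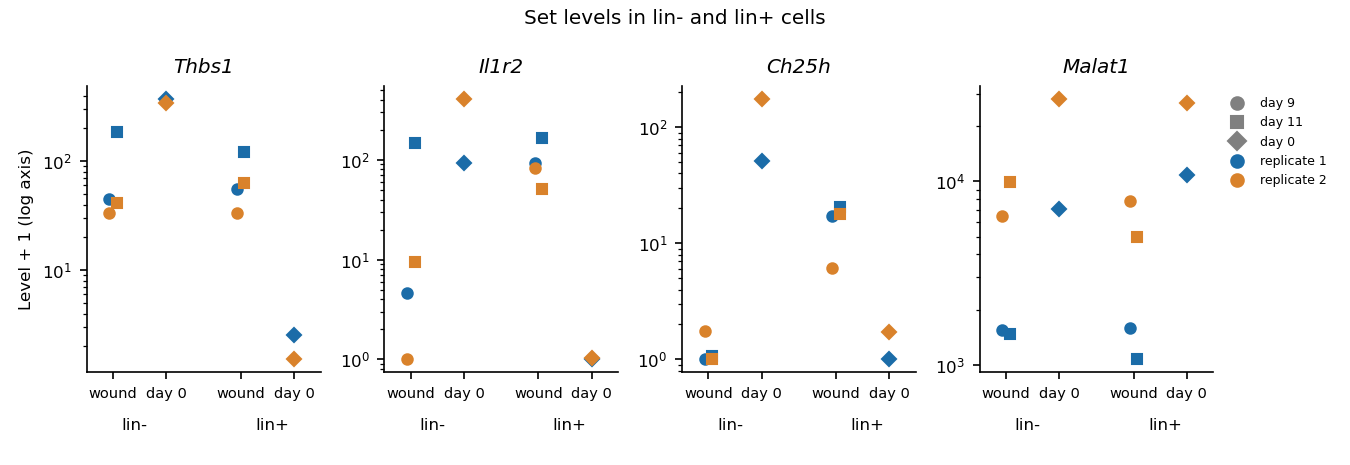
Levels (log axis, level + 1) of Thbs1, Il1r2, Ch25h and Malat1 in lin- cells (left pair) and lin+ cells (right pair), wound left of day 0 in each pair, 1 point per set. Thbs1 lies below day 0 in every lin- wound set and above it in every lin+ wound set; Malat1 lies below day 0 in all 8 wound sets.

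Of the 24 genes that passed in lin- cells none passed for a difference between the lineages by limma, where 775 of all genes (7.37%) had an unadjusted p under 0.05, 3.65% with a higher and 3.72% with a lower change in lin- cells. The nearest were Surf2 (6.53 ± 1.01, adjusted p = 0.0820) and Ch25h (-9.76 ± 1.55, adjusted p = 0.0820). Ch25h was 16.0 at day 9 and 19.7 at day 11 against 0 at day 0 in replicate 1, and 5.10 and 16.7 against 0.708 in replicate 2 in lin+ cells. The lin+ wound sets thus lay above day 0 where lin- wound sets lay below. Gjb2 in lin+ cells was 0.0719 at day 9 and 38.3 at day 11 against 0 at day 0 in replicate 1, and 14.5 and 99.3 against 0.00402 in replicate 2. The lin- wound sets were higher in each day and replicate, but the difference of the changes between lineages did not pass (1.62 ± 1.34, adjusted p = 0.832). Other genes with small p that did not pass were, on the higher side, Grem1, a BMP antagonist (7.57 ± 1.61, adjusted p = 0.419), Rrp9, which processes ribosomal RNA (4.29 ± 0.93, adjusted p = 0.425), and LTO1 (5.52 ± 1.21, adjusted p = 0.425). On the lower side they were Psmc3ip (-6.06 ± 1.14, adjusted p = 0.274), Myg1 (-6.39 ± 1.22, adjusted p = 0.274), Fibp (-4.69 ± 0.90, adjusted p = 0.274) and Rtca, an RNA cyclase (-5.63 ± 1.12, adjusted p = 0.346). A p over the threshold does not show that the change was alike in both lineages.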

How the data were processed

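Single epidermal cells were read by Smart-seq2, and the authors trimmed reads with Trimmomatic 0.27, aligned them with STAR 2.2 to GRCm38, counted them with featureCounts and analysed them with Seurat 3.2.2, with versions as in the submitters' processing notes. The study's methods name another version of Seurat. In the combined table, deposited values of replicate 1 are read counts and deposited values of replicate 2 are RPKM, which the authors scaled to length and depth. Reads of replicate 2 were recovered from the RPKM with gene lengths (99.97% of values under 200 reads came out whole within 0.02), and depths are those reads. All annotated lin- and lin+ cells of days 0, 9 and 11 were used, including 3 lin- cells with under 200 genes. Each cell was scaled to 1000000 and a set's cells were averaged. Median-of-ratios factors were then applied to the sets of each batch. Only genes at a level of 10 or more in 2 or more sets entered the test. limma 3.58.1 (R 4.3.3) was fitted with trend to log2(level + 1) of 12 sets with lineage by day and batch, which leaves 5 residual degrees of freedom. Moderation of the variances over all genes added 7.63 prior degrees of freedom. Tests were two-sided, with Benjamini-Hochberg adjustment at 0.05. The lin- and lin+ sets of a replicate come from the same mice, as do day 0 and wound sets, and the fit treats them as separate.

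The labels say that the replicate number marks the batch, so batch is the replicate block of the fit. Replicate deviations of lin- day pairs correlated at 0.32, 0.24 and 0.39 (3 pairs of days, 10517 genes). Named genes were at most 15 in each direction that passed with a level of at least 20 and 1 direction in both replicates, the 5 with the smallest p where fewer than 5 passed, and fixed names. Beyond these, Lrp10, Creld2, Fkbp1a and Gng10, which passed with smaller changes, and Gja1, Gjb6 and members of lists were named after their values were seen. Members and lists were chosen with earlier results of these data known. Intervals are exact (Clopper-Pearson, 95%) and cover counting error only. edgeR 4.0.16 and DESeq2 1.42.0 on counts and recovered reads, other scalings, filters, cells and left-out sets were alternatives, of which the removal of cells with under 200 genes and of cells with melanocyte markers were chosen after seeing the data. Over all deposited files, 1234 per-sample columns were not used, and 1 cell can have a column in more than 1 file. Exon overlaps are from GENCODE on GRCm38. The code was tested on simulated data. Values of 1 gene that passed are not reported here.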

Additional observations from a re-analysis of the deposited data

Results flagged for a closer look

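The change at days 9 and 11 differed between lin- and lin+ cells for Thbs1 (-7.58 on the log2 scale) and Il1r2 (-10.90), by the interaction contrast of the limma fit. Both have levels in every set in the report. With the highest cell of each set taken out the differences were -7.46 and -9.82, and neither passed.

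The day 11 lin- set of replicate 1 stood far from the other 3 wound sets in the median number of genes per cell (1943.5, against 3095 to 3228 in the others). After thinning to 500000 reads it did so again (1622, against 2717 to 2854). In each case the gap to the nearest set, divided by the range of the 4 sets, was above Dixon's 95% critical value. In all, 28 measures were looked at this way and 2 were over it, both of them gene counts of the same set, and chance alone flags about 1 in 20. The set held 26 cells with a median of 4530873.5 reads. Its part in the results was not tested, beyond the fits that left it out.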

How the results depend on the processing

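The number of genes past the threshold in late lin- wounds, 24, depended on the processing. It was 9 with no filter on low values, 12 with a pseudocount of 10, 3 with cell totals without Rn18s and Rn45s, 10 in IFE-B cells, 3 with day 9 alone, 1 with day 11 alone and 3 by edgeR. It was 1820 with the mean of log2 values over cells (1775 higher and 45 lower, median of all genes 0.40) and 843 by DESeq2 (581 higher and 262 lower). By limma it was 0 with no replicate block (673 genes at an unadjusted p under 0.05) and 0 with the lin- sets alone in the fit (942 genes). With 1 set left out it lay between 0 and 97. It was 29 with no scaling beyond the cell total, 29 without the highest cells, 23 with cells of at least 200 genes and 16 without cells with melanocyte markers. For the 24 genes, 207 of the gene and setting values kept the call and 441 lost it, and no direction turned. The cause of these differences was not tested.

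The number of genes with a lineage difference, 2, was 0 with no filter, without the highest cells, in IFE-B cells, with no replicate block (358 genes at an unadjusted p under 0.05 by limma) and with day 11 alone, 1 with a pseudocount of 10, with no scaling, with totals without ribosomal RNA and with the mean of logs, and 611 by DESeq2. It was 3 by edgeR and 2 with day 9 alone, and with 1 set left out it lay between 0 and 19. With lin- sets alone it could not be run.

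Genes that did not pass and turned direction were Krt16 (0.55 with the mean of logs, 0.58 with day 9 alone, and between -1.06 and 0.13 with 1 set left out), Krt15 (0.067 with day 11 alone), Myc (0.72 with the mean of logs), Gata6 (between -2.16 and 0.95 with 1 set left out) and Mki67 (0.54 with the mean of logs, 0.13 with day 9 alone, and between -2.09 and 0.93 with 1 set left out).

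The gene lists depended on the processing too. The number of members past the threshold moved by over 1.5 times in 31 of 40 lists with the mean of logs, in 21 by DESeq2 and in at most 6 under any other alternative. The list median had the other sign in 16 lists with the mean of logs, in 10 without the day 0 lin- set of replicate 2, in 9 without that of replicate 1, in 9 by edgeR, in 8 by DESeq2 and in at most 7 under any other alternative. The medians of the wound keratin, basal keratin and DNA replication lists kept their sign in all 27, that of the actin list had the other sign in 8 and that of the cell-cell junction list in 6.

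With 2 day 0 sets, 1 per batch, the level of unwounded skin rests on 2 values. The spread in the fit is pooled over 12 lin- and lin+ sets, so it is not a spread of unwounded skin. Of the genes that rose, most were read in few wound cells, where a few cells set the mean.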
